A study of Sus scrofa with 6 samples.

Results

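Genes of lung macrophages were read from the mRNA table of whole lung tissue. The list held 10 genes, chosen by symbol: CD68, CSF1R, CD163, MARCO, MSR1, MRC1, SIGLEC1, SPP1, GPNMB and PPARG. Of these, 7 had a row among the 14579 mRNAs. No row carried the pig Ensembl identifier that the reference table pairs with CD163, SIGLEC1 or GPNMB, and these 3 genes were not analysed here. A symbol was known for 9840 mRNAs, so that genes may also lie among the 4739 rows without one.

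The samples were lungs of 6 female hybrid piglets with a Tibetan sire and a Meishan dam. The fetal group held 3 piglets of separate sows, taken on the last day before birth (Fetal1 to Fetal3). The neonatal group held 3 piglets of other sows, taken 2 days after birth (Neonatal1 to Neonatal3). Neither group carried a treatment or an altered gene, and each library came from 1 piglet.

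Macrophages of the lung settle there before birth from fetal liver and other fetal monocytes, and mature into alveolar macrophages in the days around birth, when air reaches the alveoli. CSF1R is the receptor for the growth factors CSF1 and IL34, on which most tissue macrophages depend. Alveolar macrophages depend above all on CSF2, also called GM-CSF, which acts through CSF2RA and CSF2RB and raises the lipid-sensing nuclear receptor PPARG. The mature cells clear particles, microbes and used surfactant through scavenger receptors such as MARCO and MSR1 and through the mannose receptor MRC1, and degrade them in lysosomes, where CD68 resides. SPP1, or osteopontin, is a secreted glycoprotein that binds integrins and CD44. In whole tissue, more cells of a type and more RNA per cell cannot be told apart. SPP1 and PPARG are also known from epithelial and other cells.

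The values are FPKM, that is, sequenced fragments scaled to transcript length and to the number of mapped reads. Values after ± are SD over the 3 piglets of a group. Differences were tested in limma on log2(FPKM + 1) over all mRNAs, and log2(FC) below is the neonatal minus the fetal mean on that scale, which understates the change of genes with low FPKM. An adjusted p (Benjamini-Hochberg, over all mRNAs) up to 0.05 counted as past the threshold. By this rule 6.87% of all mRNAs passed, 5.41% higher and 1.45% lower in the neonatal group. The split of the calls depended on scaling: 78.8% of them were higher in the neonatal group, against 66.0% after median-of-ratios scaling and 57.9% after quantile normalization. Over all mRNAs the log2(FC) had a median of 0.13, and of -0.0090 after median-of-ratios scaling, so that a small rise is read against this shift. The tables hold no read counts, so that counting error is unknown and the spread between 3 piglets is the only error given. Lung markers were high in every sample: the alveolar type II gene SFTPC had 3508 ± 369 FPKM in the fetal libraries and 6373 ± 2291 FPKM in the neonatal libraries.

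Of the 7 measured macrophage genes, SPP1 alone was past the threshold, and it was higher in the neonatal group. CD68 lay just outside, with a mean 2.49 times the fetal one. MRC1, MARCO and MSR1 had neonatal means between 1.94 and 2.30 times the fetal ones, and PPARG 1.63 times, without passing. CSF1R, the growth factor receptor of the lineage, stood at 1.08 times its fetal mean, and the sign of its difference depended on scaling. At an unadjusted p under 0.05 in limma there were 6 of the 7, all higher, where 24.2% of all mRNAs passed in either direction and 17.6% upward. No macrophage gene was past either threshold in the other direction. For 4 of the 7 the groups did not overlap, with the neonatal values above, as for 20.9% of all mRNAs, and for none with the neonatal values below, as for 9.64%. All 7 genes exceeded the authors' minimum of 0.5 FPKM in all 6 samples, so none owed its place in the table to 1 group. The median log2(FC) over the 7 genes was 1.08.

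**Figure D1:**
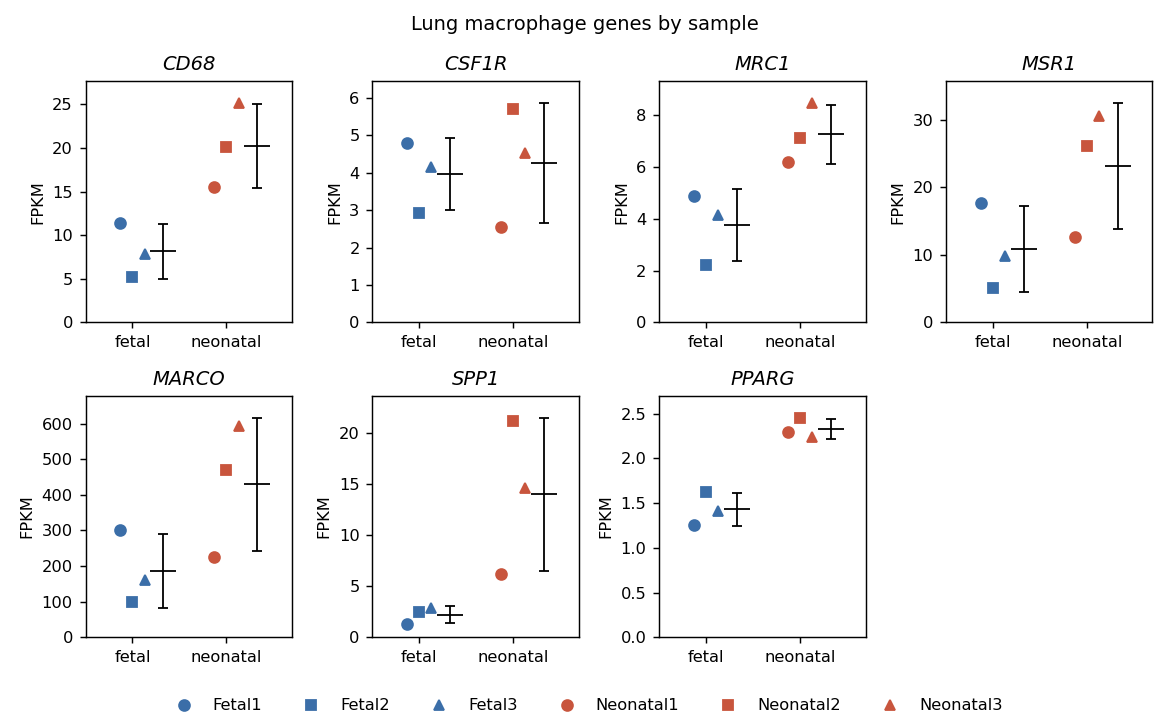
FPKM (vertical axes, each starting at 0) of the 7 measured macrophage genes in 3 fetal (blue) and 3 neonatal (red) lungs; symbols mark the samples, and the black bar with whiskers is the group mean ± SD. All neonatal values lie above all fetal values for CD68, MRC1, SPP1 and PPARG, while the groups overlap for CSF1R, MSR1 and MARCO.

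SPP1 (ENSSSCG00000009216) measured 1.28, 2.51 and 2.82 FPKM before birth (Fetal1 to Fetal3, in this order here and below), and 6.18, 21.2 and 14.7 FPKM after birth (Neonatal1 to Neonatal3). The groups were separate with all neonatal lungs on top, and the neonatal samples differed among themselves by a factor of 3.43. The means were 2.204 ± 0.813 and 14 ± 7.52 FPKM (n = 3 each), a ratio of 6.35. Its log2(FC) was 2.12 (standard error 0.42, 95% interval 1.13 to 3.10, adjusted p = 0.0302 in limma). Among all mRNAs, its mean level moved from the percentile 28.3 in the fetal group to 73.5 in the neonatal group. The call needed nearly all of the samples: without Fetal1, Fetal2, Fetal3, Neonatal2 or Neonatal3 the adjusted p lay between 0.0844 and 0.123, and without Neonatal1 it was 0.0240.

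CD68 (ENSSSCG00000017956), the lysosomal glycoprotein by which tissue macrophages are commonly stained, had 11.4, 5.18 and 7.84 FPKM before birth and 15.5, 20.1 and 25.2 FPKM after birth. The groups did not overlap. The means were 8.14 ± 3.13 and 20.2 ± 4.82 FPKM (n = 3 each). Its log2(FC) of 1.25 (standard error 0.30, 95% interval 0.55 to 1.94) came with an adjusted p of 0.0506 in limma. This value sits at the threshold itself: it was 0.0412 with a stricter filter on low FPKM and 0.0493 after quantile normalization, and 0.0503 after median-of-ratios scaling. Leaving out 1 sample gave between 0.0637 and 0.167.

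CSF1R (ENSSSCG00000014441) had 4.80, 2.91 and 4.15 FPKM before birth and 2.55, 5.71 and 4.53 FPKM after birth. Both the lowest and the highest value of the 6 came from the neonatal group, Neonatal1 and Neonatal2. The means were 3.96 ± 0.962 and 4.26 ± 1.60 FPKM (n = 3 each), and the log2(FC) of 0.057 (standard error 0.29; adjusted p = 0.920 in limma) turned to -0.085 after median-of-ratios scaling and -0.071 after quantile normalization. Its 95% interval ran from -0.61 to 0.73, so that a rise or fall of moderate size was not detectable with these samples. The 5 named genes whose profile over the 6 samples was most like that of CSF1R were SNRNP70, RBM3, PTER, AKAP8L and VARS2. Their centred log2(FPKM + 1) values differed from those of CSF1R by a root mean square of 0.0790 to 0.0976. None of them belongs to the lists of macrophage or related genes used here.

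The scavenger receptor MARCO (ENSSSCG00000015716) was by far the most abundant of the genes, with 299.9, 98.3 and 161 FPKM before birth and 227, 469 and 594 FPKM after birth. Its mean level exceeded that of 98.0% of all mRNAs in the fetal group and 98.5% in the neonatal group. The groups overlapped, because Fetal1 stood above Neonatal1. The log2(FC) was 1.24 (standard error 0.50, adjusted p = 0.188 in limma).

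MSR1 (ENSSSCG00000006979), a scavenger receptor of modified lipoproteins and microbial surfaces, had 17.7, 5.15 and 9.78 FPKM before birth and 12.6, 26.1 and 30.6 FPKM after birth. Here too Fetal1 exceeded Neonatal1, and Fetal2 was the lowest sample. The log2(FC) was 1.08 (standard error 0.46, adjusted p = 0.206 in limma). Its interval began at 0.00099, close to no difference.

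The samples of MARCO and MSR1 kept the same order, and the FPKM of MARCO divided by that of MSR1 was nearly constant. The quotient was 16.9, 19.1 and 16.5 before birth, and 17.9, 18.0 and 19.4 after birth. The highest quotient exceeded the lowest by a factor of 1.18, whereas MSR1 itself spanned a factor of 3.44 within the fetal group and 2.42 within the neonatal group. This pair was singled out after its values had been seen, and no test is given. For CD68 over MSR1 the corresponding factor between highest and lowest quotient was 1.90, and for SPP1 over CD68 it was 9.39. For the complement C1q genes C1QA over C1QC it was 1.34, and for MARCO over C1QA 2.05. The share of all gene pairs with so small a factor was not computed.

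A part of the other macrophage genes had this order of samples within the groups. C1QA and C1QC encode chains of complement C1q, which tissue macrophages produce in quantity. C1QA had 299.5, 154 and 223 FPKM before birth and 210.3, 359 and 475 FPKM after birth. C1QC had 302, 135 and 195 FPKM and 202, 418 and 455 FPKM. In CD68, CSF1R, MARCO, MSR1, MRC1, C1QA and C1QC alike, Fetal1 was the highest and Fetal2 the lowest fetal sample, and Neonatal1 the lowest neonatal sample. SPP1 and PPARG departed from this, with Fetal1 as their lowest fetal sample. Of the 19 measured pan-macrophage and myeloid genes 7 had the order, and SPI1, TYROBP, CYBB and MERTK were among the related genes without it. Over all mRNAs the order was found in 11.7%. The size factors of the median-of-ratios scaling had this order too. They were 1.009, 0.908 and 0.946 for Fetal1 to Fetal3, and 1.001, 1.086 and 1.154 for Neonatal1 to Neonatal3. The part of sample-wide scale in the shared order was not tested. Neither C1QA (log2(FC) 0.60, adjusted p = 0.386) nor C1QC (log2(FC) 0.76, adjusted p = 0.317) was past the threshold in limma. With 3 piglets a group, a shared order of samples is a description of these lungs only.

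**Figure D2:**
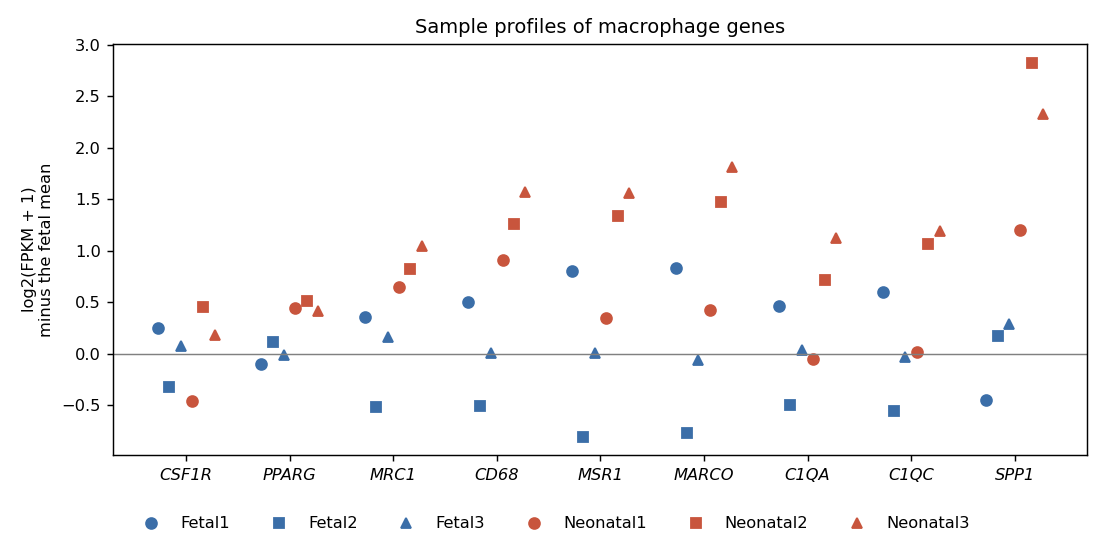
Values of log2(FPKM + 1) minus the fetal mean of the same gene (vertical axis) in each of the 6 samples, for the 7 macrophage genes and for C1QA and C1QC. Fetal1 lies at 0.83 and Fetal2 at -0.77 for MARCO, and at 0.80 and -0.81 for MSR1, while SPP1 shows the reverse order of these samples.

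MRC1 (ENSSSCG00000011038), the mannose receptor, had 4.89, 2.204 and 4.15 FPKM before birth and 6.19, 7.13 and 8.47 FPKM after birth. The groups did not overlap, and the neonatal samples lay within a factor of 1.37 of each other. The means were 3.75 ± 1.39 and 7.26 ± 1.15 FPKM (n = 3 each). The log2(FC) was 0.84 (standard error 0.27, adjusted p = 0.112 in limma).

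PPARG (ENSSSCG00000011579), the nuclear receptor of the alveolar macrophage program, was the lowest of the 7 genes, with 1.26, 1.63 and 1.41 FPKM before birth and 2.29, 2.45 and 2.24 FPKM after birth. It was also the gene with the tightest groups, of 1.43 ± 0.184 and 2.33 ± 0.111 FPKM (n = 3 each), and these did not overlap. The log2(FC) was 0.46 (standard error 0.18; adjusted p = 0.185 in limma). With 0.1 in place of 1 added to FPKM, it was 0.67 (adjusted p = 0.197 in limma).

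On FPKM, which is a level per length of transcript, MARCO stood above MSR1 in 6 of 6 samples and CSF1R above PPARG in 6 of 6. MSR1 and CD68 each stood above MRC1 and CSF1R in 6 of 6 samples. Within these pairs the order varied between samples, as MSR1 exceeded CD68 in 4 of 6 and MRC1 exceeded CSF1R in 4 of 6. SPP1 took a place below MRC1 and CSF1R in the fetal means and above both in the neonatal means.

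**Figure D3:**
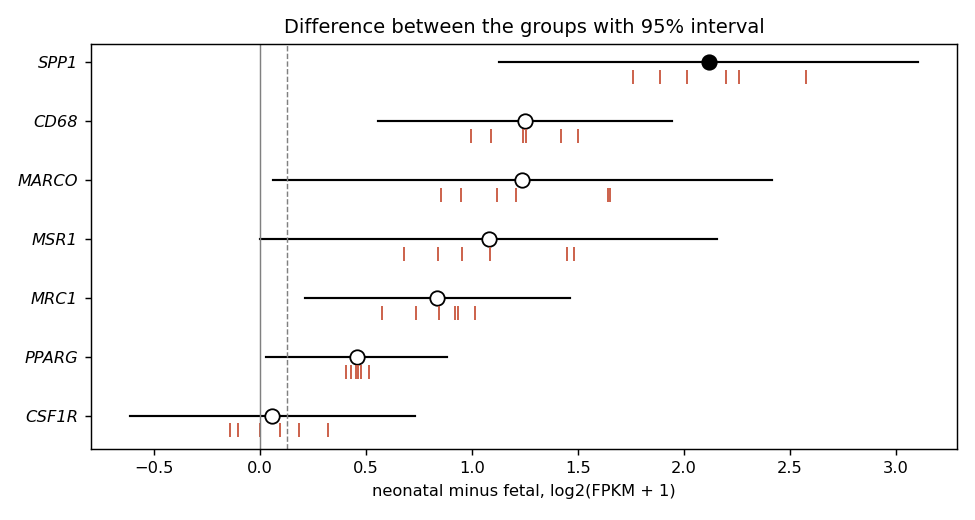
Neonatal minus fetal mean of log2(FPKM + 1) (horizontal axis) for the 7 macrophage genes, with the 95% interval of limma as a black line; the filled circle is past the adjusted threshold, and red ticks are the values with each of the 6 samples left out. The dashed line is the median of all mRNAs, 0.13; the ticks of CSF1R fall on both sides of 0, from -0.14 to 0.32, and those of SPP1 between 1.76 and 2.57.

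The macrophage genes were next set against CSF1R within the same sample, a ratio that sample-wide scaling hardly moves. For 5 of the 6 other genes the ratio was higher in every neonatal than in every fetal sample, whereas 13.4% of all mRNAs behaved so. MARCO and MSR1, which overlapped between groups on their own, were among the 5. Their overlap came from Fetal1 above Neonatal1, and CSF1R had 4.80 FPKM in Fetal1 and 2.55 FPKM in Neonatal1. The separation of MARCO and MSR1 by the ratio thus rests on CSF1R being higher in Fetal1 than in Neonatal1. The ratio was taken as (FPKM + 1) over (FPKM + 1). For CD68 it was 2.14, 1.58 and 1.72 in the fetal and 4.65, 3.14 and 4.73 in the neonatal samples. For MARCO it was 51.8, 25.4 and 31.5, then 64.1, 70.0 and 107. For SPP1 the ratio went from below 1 in the fetal samples, at 0.393, 0.898 and 0.741, to 2.02, 3.30 and 2.83. The mean log2 ratio differed by 2.06 for SPP1, 1.19 for CD68, 1.18 for MARCO, 1.02 for MSR1 and 0.78 for MRC1 (neonatal minus fetal; exact permutation test, two-sided p = 0.1 for each, the smallest that 3 against 3 allow, and 0.12 when adjusted over the 6 genes). PPARG overlapped, with a difference of 0.40 (exact permutation test, two-sided p = 0.4). SPI1, PTPRC, C1QA, C1QC and TYROBP, set against CSF1R for comparison, did not overlap either, and MERTK did. All of these ratios share the same CSF1R values and are not independent of each other.

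**Figure D4:**
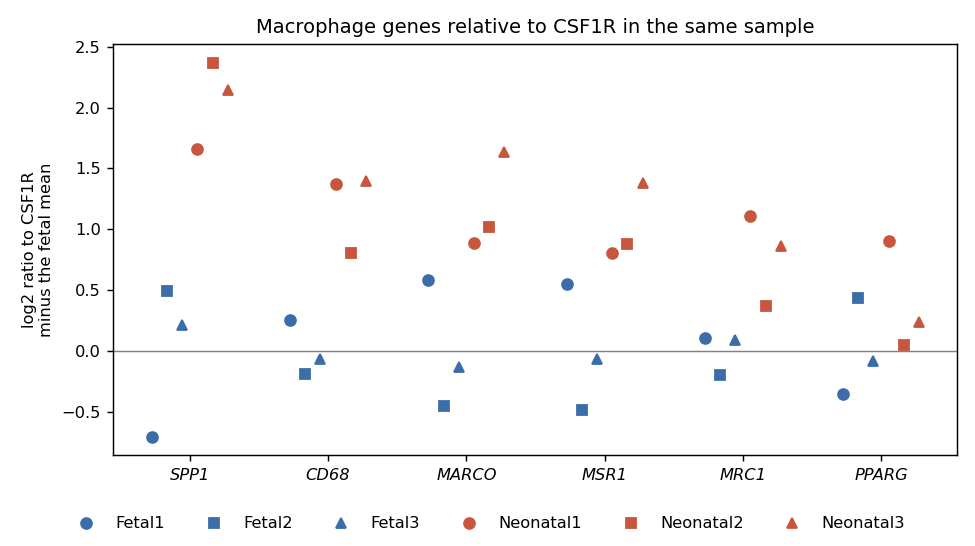
Log2 of (FPKM + 1) of each gene over (FPKM + 1) of CSF1R in the same sample, minus the fetal mean of that log2 ratio (vertical axis), for 6 macrophage genes in 3 fetal (blue) and 3 neonatal (red) lungs. The groups do not overlap for SPP1, CD68, MARCO, MSR1 and MRC1, and they overlap for PPARG.

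Genes of related functions were read from the same fit in 8 lists, together 103 genes of which 72 had a row. Past the threshold were 11 of the 72 (15.3%), all of them higher in the neonatal group, where 5.41% of all mRNAs were called higher. The median log2(FC) of the 72 was 0.63, against 0.13 for all mRNAs. For 9 of the 72 the symbol was known only from the study's own list of changed genes, so that they entered through the outcome compared. Without these 9, 10 of 63 genes (15.9%) were past the threshold, with a median log2(FC) of 0.60. PLIN2, C1QC, CYBB and CD5L are among the 9. EGR2, FCGR1A, OLR1 and CLEC7A exceeded the minimum of 0.5 FPKM in the neonatal group alone and entered the table through it, and BHLHE41 through the fetal group alone. None of these was past the threshold, and all remain among the 63 genes behind the median of 0.60. EGR2, FCGR1A, OLR1 and CLEC7A had a positive log2(FC), and BHLHE41 a negative one. No gene was called lower, although 3 had an unadjusted p under 0.05 in that direction, and CD5L and ABCA1 were called after median-of-ratios scaling or quantile normalization. CD5L is a secreted scavenger protein of macrophages, and ABCA1 exports cholesterol from cells. They had a log2(FC) of -1.12 and -0.85 as deposited (adjusted p = 0.0626 and 0.0654 in limma).

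Among growth factors and their receptors, 1 of 5 measured genes passed. For this list and each list below, the share of all mRNAs called higher was 5.41%. CSF2RB, the signalling chain of the CSF2 receptor, had 1.95, 2.91 and 2.43 FPKM before birth and 6.41, 6.85 and 5.42 FPKM after birth. The groups were well apart, with a log2(FC) of 1.08 and a standard error of 0.20 (adjusted p = 0.0225 in limma). With any 1 sample left out its adjusted p lay between 0.0536 and 0.0945. Its ligand CSF2 had 4.51, 1.56 and 0.387 FPKM and then 2.41, 2.34 and 2.60 FPKM, and so a log2(FC) of 0.36 (adjusted p = 0.668 in limma) with wide scatter in the fetal group. CSF1, IL34 and CSF2RA were not matched to a row.

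Of 7 transcription factors, SPI1 passed. It encodes PU.1, which is required for the myeloid lineage and drives CSF1R and many other macrophage genes. SPI1 had 14.9, 11.3 and 15.9 FPKM before birth and 24.0, 35.8 and 39.3 FPKM after birth, without overlap. The log2(FC) was 1.16 (standard error 0.24, adjusted p = 0.0329 in limma). Without Fetal1, Fetal2, Fetal3, Neonatal2 or Neonatal3 its adjusted p was between 0.0814 and 0.137.

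Of 19 pan-macrophage and myeloid genes, 18 had a positive log2(FC), but LYZ alone passed. The list median was 0.94, against 0.13 for all mRNAs. AIF1, CYBB and C1QC, all with a positive log2(FC), had their symbols only from the study's list of changed genes. FCGR1A, with a log2(FC) of 1.79, exceeded the minimum of 0.5 FPKM in the neonatal group alone. The 18 positive genes and the list median include all of these, and no median was computed without them. Lysozyme, encoded by LYZ, cleaves bacterial cell walls. It had 2.25, 2.197 and 2.27 FPKM before birth and 8.93, 14.7 and 11.8 FPKM after birth, with a log2(FC) of 1.96 and a standard error of 0.21 (adjusted p = 0.00471 in limma). Reads of LYZ may be shared with similar lysozyme genes, which makes its level uncertain. CD14, the co-receptor for lipopolysaccharide, had 26.4, 9.89 and 25.6 FPKM and then 30.5, 61.1 and 57.6 FPKM (log2(FC) 1.28, adjusted p = 0.120 in limma). MERTK, a receptor for the uptake of apoptotic cells, did not follow the list. It had 4.21 ± 0.949 and 3.56 ± 0.801 FPKM (n = 3 each; the log2(FC) was -0.19, adjusted p = 0.641 in limma). C1QB was not matched to a row.

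Among 9 other scavenger and lectin receptors, SCARB1, the receptor for high-density lipoprotein, passed. It had 3.30 ± 0.820 FPKM before and 9.21 ± 2.35 FPKM after birth (n = 3 each; the log2(FC) was 1.24, adjusted p = 0.0302 in limma), and missed the threshold after median-of-ratios scaling, at 0.0520.

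In the lipid handling list, 3 of 10 genes passed, where 5.41% of all mRNAs were called higher. PLIN2, which coats lipid droplets, had 5.43, 3.19 and 4.28 FPKM before birth and 12.3, 12.7 and 14.3 FPKM after birth (log2(FC) 1.43, adjusted p = 0.0109 in limma). ACOT7, a thioesterase of long-chain acyl-CoA, went from 2.65 ± 1.38 to 11.98 ± 2.83 FPKM (n = 3 each; the log2(FC) was 1.88, adjusted p = 0.0180 in limma). APOE, the apolipoprotein secreted by macrophages and other cells, went from 54.7 ± 11.2 to 134 ± 36.8 FPKM (n = 3 each; the log2(FC) was 1.26, adjusted p = 0.0377 in limma). The list was divided, since only 6 of its 10 genes had a positive log2(FC). FABP4, a common target of PPARG, was not matched to a row.

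The lysosome and phagocytosis list had 3 of 9 genes past the threshold, where 5.41% of all mRNAs were called higher. CTSL, a cysteine protease of the lysosome, had 1.67, 1.38 and 1.08 FPKM before birth and 7.55, 9.62 and 12.5 FPKM after birth. This was the largest rise of the 11 called genes, with a log2(FC) of 2.18 and a standard error of 0.23 (adjusted p = 0.00435 in limma). CTSL and LYZ were the 2 of the 11 genes that passed whichever sample was left out. LGMN, or legumain, went from 27.1 ± 9.85 to 63.1 ± 7.56 FPKM (n = 3 each; the log2(FC) was 1.24, adjusted p = 0.0408 in limma). CTSZ went from 29.5 ± 7.02 to 76.8 ± 27.1 FPKM (n = 3 each; the log2(FC) was 1.32, adjusted p = 0.0489 in limma), and its adjusted p was 0.0540 without a variance trend.

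Of the 9 receptors of osteopontin, the protein of SPP1, the integrin chain ITGA5 passed. ITGA5 had 18.4, 16.2 and 20.4 FPKM before birth and 36.8, 41.2 and 39.7 FPKM after birth (log2(FC) 1.06, adjusted p = 0.0149 in limma). CD44 had 73.1 ± 21.4 and 92.2 ± 3.95 FPKM (n = 3 each; the log2(FC) was 0.38, adjusted p = 0.416 in limma). None of the 4 measured genes of heme and iron handling passed in limma. The 1 with an unadjusted p under 0.05 was FTH1, higher in the neonatal group, where 24.2% of all mRNAs passed in either direction. Its symbol came from the study's list of changed genes, so that it entered through the outcome compared. HP and HMOX1, which belong to the clearance of hemoglobin with CD163, were not matched to a row.

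**Figure D5:**
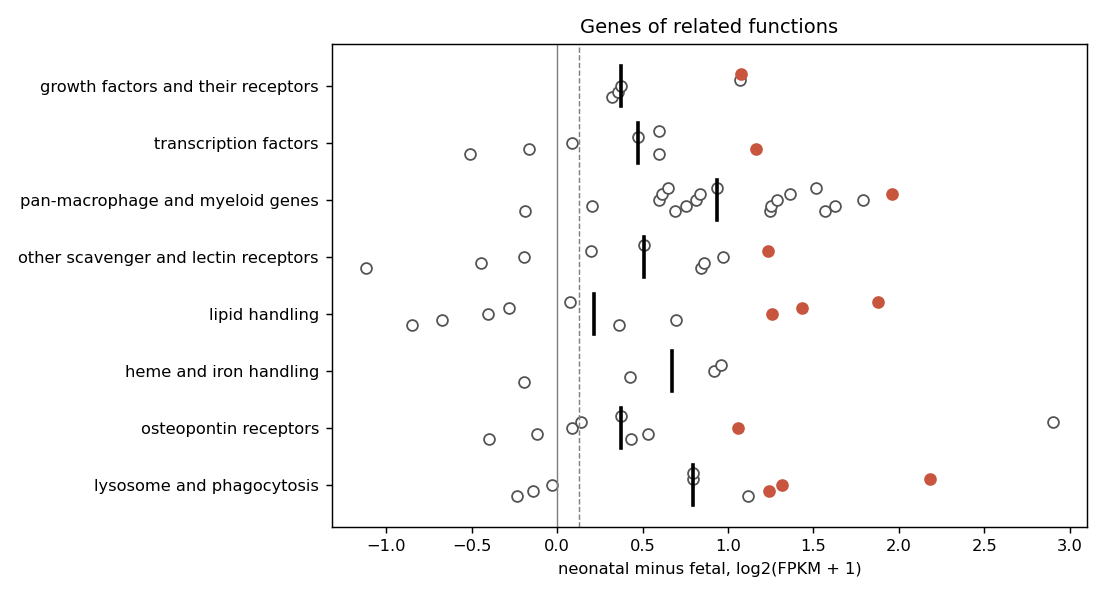
Neonatal minus fetal mean of log2(FPKM + 1) (horizontal axis) for the 72 measured genes of 8 lists of related functions; filled red circles are the 11 genes past the adjusted threshold, open circles the others, and black bars the list medians. The dashed line is the median of all mRNAs, 0.13. The pan-macrophage list has a median of 0.94 with 1 gene past the threshold. This median includes genes that entered through the outcome compared.

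Of 6 measured neutrophil markers 4 passed, all higher in the neonatal group, where 5.41% of all mRNAs were called higher. The summed FPKM of these markers was 84.3 to 158 in the fetal and 851 to 1319 in the neonatal samples. S100A8, S100A9 and S100A12, which monocytes make as well, had a log2(FC) of 2.81, 3.15 and 3.72, and LTF had 1.58. The symbols of S100A9 and S100A12 came from the study's list of changed genes, so that both entered through the outcome compared. Of the other markers S100A8 and LTF passed, and CSF3R and ELANE did not. S100A12 alone had 58.1 ± 31.5 FPKM in the fetal and 727 ± 181 FPKM in the neonatal group (n = 3 each), a large part of the sum. ELANE, a defining gene of neutrophil precursors, was listed at 0 in the 3 neonatal samples. Its fetal values were low as well, at 1.28, 0.562 and 0.071 FPKM (log2(FC) -0.64, adjusted p = 0.237 in limma). Of 5 measured monocyte markers VCAN and CX3CR1 passed, with a log2(FC) of 1.61 and 1.26. The summed level of these markers was 21.8 to 40.5 FPKM in the fetal and 67.5 to 109 FPKM in the neonatal samples. CX3CR1 was close to constant within groups, at 1.12 ± 0.0689 and 4.09 ± 0.186 FPKM (n = 3 each), and VCAN is also made by fibroblasts. The part of neutrophils and monocytes in the values of the macrophage genes was not tested.

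In limma no gene passed among 8 lymphocyte, 3 dendritic cell, 7 alveolar type II, 4 alveolar type I, 6 endothelial, 4 fibroblast and 3 erythroid markers, nor did the 1 measured adipocyte marker, CIDEC. At an unadjusted p under 0.05 in limma there were 3 lymphocyte, 2 endothelial, 2 fibroblast and 1 alveolar type II marker, and CIDEC. Over all mRNAs 24.2% passed so in either direction. CD79B, MS4A1, KDR and CIDEC were lower in the neonatal group, and NKG7, CLDN5, COL1A2, LUM and SFTPA1 higher. The symbols of CLDN5 and SFTPA1 came from the study's list of changed genes, so that both entered through the outcome compared. The lymphocyte markers summed to 10.1 to 13.4 FPKM in the fetal and 7.88 to 21.4 FPKM in the neonatal samples. The alveolar type II markers summed to 4832 to 5406 FPKM and to 6543 to 11737 FPKM. Among 4 lymphatic endothelial markers LYVE1, a hyaluronan receptor that some tissue macrophages also carry, was lower in the neonatal group. It had 104, 57.0 and 66.1 FPKM before birth and 22.7, 30.9 and 34.4 FPKM after birth (log2(FC) -1.31, adjusted p = 0.0349 in limma). PROX1, the defining factor of lymphatic endothelium, had a log2(FC) of -0.21 (adjusted p = 0.687 in limma). FLT4 had 8.20, 6.67 and 11.7 FPKM before birth and 6.66, 6.09 and 6.31 FPKM after birth, narrowly without overlap (log2(FC) -0.39, adjusted p = 0.324 in limma). PDPN overlapped between groups, with a log2(FC) of 0.38 (adjusted p = 0.658 in limma).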

How the data were processed

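Total RNA of 6 piglet lungs was depleted of rRNA with Ribo-Zero and made into strand-specific libraries. The authors mapped quality-filtered reads to Sscrofa10.2 with TopHat2 2.1.0 and deposited FPKM computed with Cufflinks 2.2.1. Each of the 14579 deposited mRNAs exceeded 0.5 FPKM somewhere among the samples. The lncRNA table was not used. The 6 value columns were matched to samples by name, and 0 were left unmatched. Symbols came from a reference table for 9478 mRNAs and from the names in the paper's list of changed genes for 362.

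Values were analysed as log2(FPKM + 1), with no further filter, in limma 3.58.1 under R 4.3.3, letting the variance follow mean level, with Benjamini-Hochberg adjustment over all mRNAs. Exact permutation tests and figures were made in Python 3.11.15 with scipy 1.17.1 and matplotlib 3.10.9. On simulated data with the spread of this table (14579 genes, 200 of them changed), limma found 0 genes given a log2 change of 1, 189 given 2 and 198 given 4, with 1, 12 and 12 unchanged genes called.

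The members and lists were chosen with earlier results of these data known. All members were named, and of each related list at most 4 genes past the threshold by adjusted p, plus fixed partners of the members. For CSF1R the 5 symbols with the closest profile were named. SFTPC, LYVE1 and other markers, CD5L, ABCA1 and the pairs of genes set against each other were named after their values were seen. Alternatives were pseudocounts of 0.5 and 0.1, median-of-ratios scaling, a stricter filter (over 1 FPKM in 3 or more samples), each sample left out, quantile normalization, a fit without variance trend, and a block for replicate number. A planned search of promoters for motifs was not run, and 6 rather than 9 ratios to CSF1R were tested, since 3 members had no row.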

Additional observations from a re-analysis of the deposited data

How the results depend on the processing

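Of the macrophage genes, 1 was past the threshold, and 2 were with the stricter filter or after quantile normalization, when CD68 joined SPP1. With 1 sample left out the number lay between 0 and 1, and it was 0 without each sample but Neonatal1. No macrophage gene was called lower under any alternative run. Of the related genes, 11 were called higher, and 2 to 16 with 1 sample left out, with fewer than 6 in every case but Neonatal1. None was called lower as deposited, against 2 after median-of-ratios scaling and 2 after quantile normalization. The ratio to CSF1R separated the groups for 5 genes with either other pseudocount, and for 5 to 6 with 1 sample left out. The log2(FC) of CSF1R changed sign, to -0.085 after median-of-ratios scaling and -0.071 after quantile normalization, and lay between -0.14 and 0.32 with 1 sample left out. That of CSF2 lay between -0.12 and 0.87, and it was below 0 without Fetal3. Equal replicate numbers did not mark paired piglets, which came from different sows, and the deviations of same-numbered samples correlated at -0.041 to 0.00047 over all mRNAs. With the replicate number as a block, 1 macrophage gene and 4 related genes were called higher. Of 312 values for single genes, 248 kept direction and side of the threshold, 56 dropped below it, 2 passed it and 6 changed sign. In the simulated table no change of 1 on the log2 scale was recovered. Fewer genes were changed there than were called in the deposited table, so its adjusted threshold does not carry over. In the deposited table some log2(FC) of this size passed, as for ITGA5 (1.06, standard error 0.17), CSF2RB (1.08, 0.20) and SPI1 (1.16, 0.24). Others with a larger standard error did not, as for MARCO (1.24, 0.50) and MSR1 (1.08, 0.46). Whether the threshold missed true differences of MARCO, MSR1, MRC1 and PPARG was not tested.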

Other observations

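ITGAV, a chain of the integrins that bind osteopontin, had 20.2, 46.3 and 34.9 FPKM before birth and 30.2, 245 and 1954 FPKM after birth. It was singled out after its values were seen. Its log2(FC) of 2.90 was the largest among the 72 related genes, but its neonatal values spread over a wide range and it was not past the threshold (adjusted p = 0.224 in limma).

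TIMD4, a receptor for phosphatidylserine found on resident macrophages, had 4.596, 1.08 and 2.498 FPKM before birth and 1.29, 8.30 and 13.4 FPKM after birth. Within each group its samples had the same order as those of MARCO and MSR1. The groups of TIMD4 overlapped (log2(FC) 0.97, standard error 0.68, adjusted p = 0.420 in limma). FOLR2, which marks resident macrophages in several tissues, had 25.5, 18.8 and 32.2 FPKM before birth and 27.3, 28.2 and 31.3 FPKM after birth (log2(FC) 0.21, adjusted p = 0.605 in limma). These genes were also chosen after their values were seen.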
